A study of Rattus norvegicus with 6 samples.

Results

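Hox genes were examined in cultured cells of newborn Sprague-Dawley rats, and 31 of the 39 Hox genes that RefSeq lists for the rat were measured among 18166 genes in all. Members were taken by name: every symbol that joins Hoxa, Hoxb, Hoxc or Hoxd to a number from 1 to 13 and has a probe set with exactly 1 platform symbol. Each of the 31 had a single probe set. The other Hox genes were not analysed here. The measured genes are 8 of the HoxA cluster, 10 of HoxB, 7 of HoxC and 6 of HoxD.

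One group was SKPs, precursor cells derived from the skin of the back, and the other NSCPs, precursors of Schwann cells taken from the sciatic nerve, with 3 independent isolates of each and 1 expression array per isolate. All animals were wild-type and no group carried a transgene or a deletion. SKPs were secondary spheres dissociated and regrown with FGF2 at 40 ng/ml and EGF at 20 ng/ml, and NSCPs were grown with neuregulin-1β at 25 ng/ml and forskolin at 5 μM on plates coated with laminin and poly-D-lysine. Body site, tissue, medium and growth form all differ between SKPs and NSCPs, and their parts cannot be told apart. Of the Schwann cell markers 7 of 8 were higher in NSCPs, and of the dermal mesenchyme markers 10 of 10 were lower there. Of 15 markers of macrophages and leukocytes 12 were lower, with a summed log2 level from 129 to 144 in the SKP arrays and from 77.2 to 78.9 in the NSCP arrays.

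Hox genes encode homeodomain transcription factors that lie in 4 clusters, in which the order of the genes along the chromosome follows the order of their expression along the body axis. Low-numbered paralogues are used from the hindbrain and neck backwards, middle ones in the trunk, and high-numbered ones in the lumbar, sacral and tail region and in the distal limb. Fibroblasts keep a Hox pattern of their body site in culture, and neural crest derivatives carry one of their axial origin. Hox proteins bind DNA together with TALE homeodomain cofactors of the Pbx, Meis and Prep families. Polycomb proteins keep clusters silent and Trithorax proteins keep them active.

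Most HoxA and HoxC genes between paralogues 2 and 10 were lower in NSCPs, while no HoxB or HoxD gene was lower. Of the 31 Hox genes 10 were lower and 7 higher in NSCPs by limma's moderated test at an adjusted p under 0.05 (Benjamini-Hochberg, over every gene measured). The same test called 18.6% of all genes lower and 25.2% higher, 43.7% together. All 10 lower genes belong to HoxA (5 of 8) or HoxC (5 of 7), and among the 16 HoxB and HoxD genes 6 were higher and 0 lower. Without adjustment, limma gave a p under 0.05 for 1 lower gene of those 16, Hoxb3. Median differences, NSCPs minus SKPs on the log2 scale, were -1.44 in HoxA, 0.35 in HoxB, -1.11 in HoxC and 0.25 in HoxD, beside 0.14 over all genes. In bulk RNA, fewer cells of a type and less RNA per cell cannot be told apart.

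**Figure D1:**
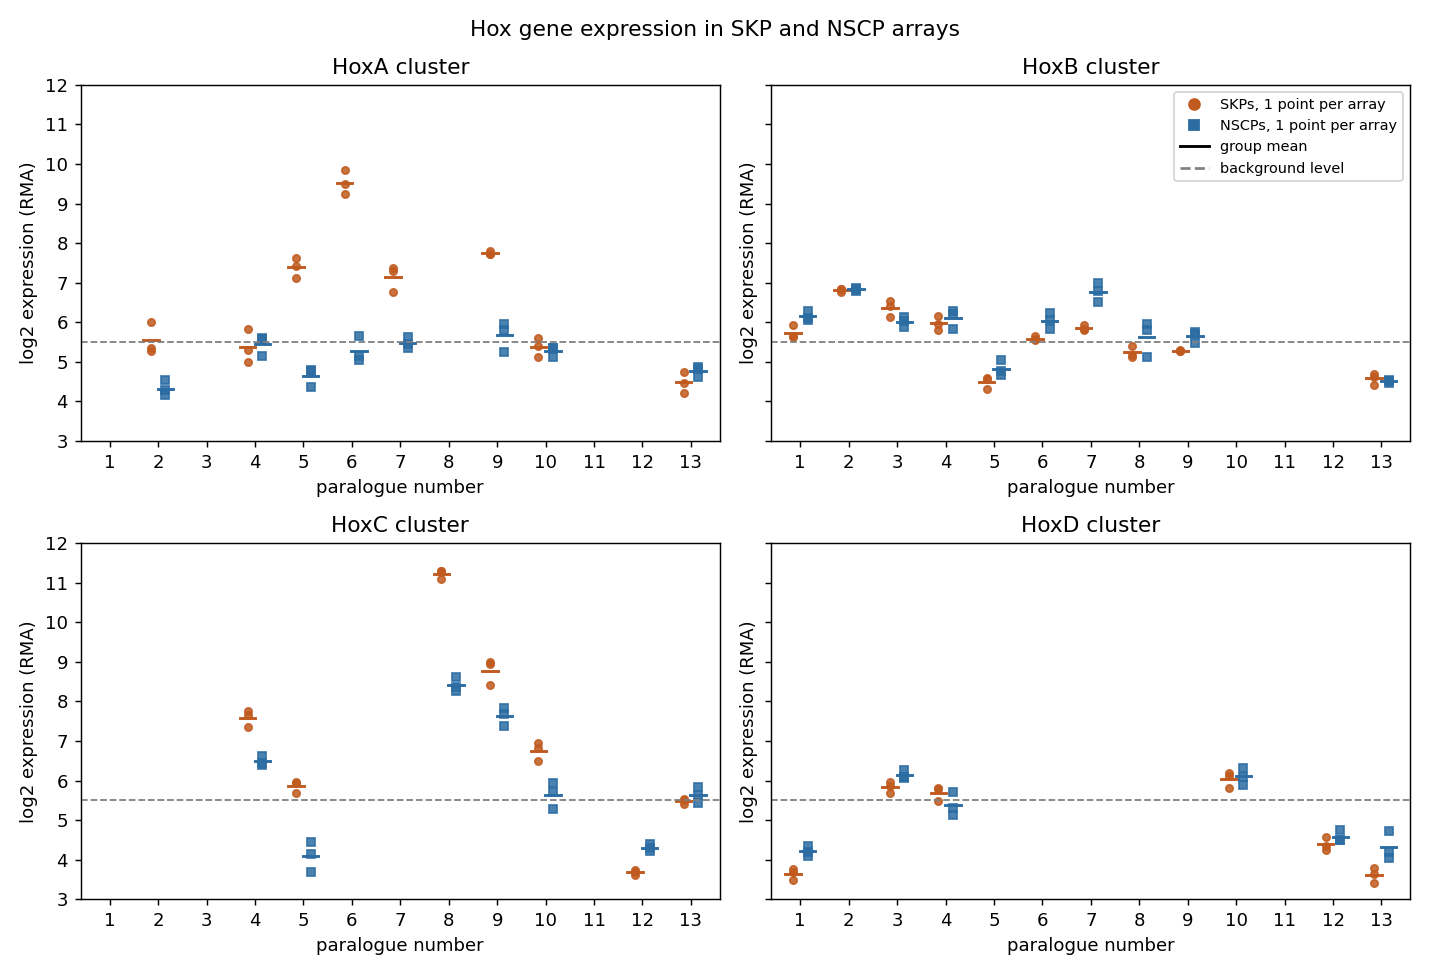
Levels of the 31 Hox genes on each array, as log2 expression against paralogue number in 1 panel per cluster, with SKP arrays as circles, NSCP arrays as squares, a bar at each group mean and a dashed line at the background level of 5.50. The SKP points of Hoxa5, Hoxa6, Hoxa7, Hoxa9 and of Hoxc4 to Hoxc10 lie above all NSCP points of the same gene, while the HoxB and HoxD points of both groups lie close together.

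No detection calls were used, so a background level was taken from genes that these cells are not known to use, the 1344 measured olfactory and vomeronasal receptor genes. The 95th percentile of their means, 5.50 on the log2 scale, served as the background level, and means at or below it are described as within background. Of the Hox genes 19 (61.3%) had an SKP mean above it and 16 (51.6%) an NSCP mean above it, beside 65.3% and 64.5% of all genes. Above it in both groups were 13 genes, in SKPs alone Hoxa2, Hoxa5, Hoxa6, Hoxa7, Hoxc5 and Hoxd4, in NSCPs alone Hoxb8, Hoxb9 and Hoxc13, and 9 were within background in both. At the 99th percentile, 6.58, there were 9 genes in SKPs and 4 in NSCPs, and these 4 were Hoxb2, Hoxb7, Hoxc8 and Hoxc9.

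In HoxA, the genes from Hoxa5 to Hoxa9 formed a run of lower genes, with Hoxa2 lower as well. Hoxa6, a trunk-level gene, stood at 9.84, 9.23 and 9.50 in the SKP arrays and at 5.64, 5.04 and 5.15 in the NSCP arrays. The groups are far apart, and the NSCP mean of 5.28 lies within background, so the difference of -4.25 (SE 0.21, limma adjusted p = 8.67e-07) rests on a background level. Hoxa5, which acts in lung and cervical to thoracic patterning, was at 7.62, 7.13 and 7.43 in SKPs and at 4.37, 4.77 and 4.79 in NSCPs. Its difference was -2.75 (SE 0.17, limma adjusted p = 4.03e-06), again with an NSCP mean within background.

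Hoxa7 was at 7.37, 6.76 and 7.30 in SKPs and 5.64, 5.46 and 5.35 in NSCPs, a difference of -1.66 (SE 0.18), and its NSCP mean of 5.48 lies just within background. Hoxa9, a gene of the thoracic to lumbar transition that is also active in blood progenitors, was at 7.80, 7.73 and 7.73 in SKPs and at 5.96, 5.81 and 5.25 in NSCPs. It was 4.23-fold lower in NSCPs (SE 0.18 on the log2 scale, limma adjusted p = 3.28e-05), and its NSCP mean of 5.67 lies above background. Hoxa2, a hindbrain and pharyngeal arch gene, was at 5.997, 5.35 and 5.27 in SKPs against 4.28, 4.55 and 4.15 in NSCPs. Its difference of -1.21 (SE 0.21) passed, with an SKP mean of 5.54 next to the background level and an NSCP mean below it.

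The remaining HoxA genes did not pass. Hoxa4, which lies between the lower genes Hoxa2 and Hoxa5, was at 5.37 ± 0.42 in SKPs and 5.44 ± 0.26 in NSCPs (SD, n = 3 each), with a difference of 0.07 and a 95% interval from -0.44 to 0.58. Hoxa10, a gene of the lumbar region and the uterus, was at 5.37 ± 0.24 and 5.27 ± 0.12 (SD, n = 3 each), and the interval of its difference ran from -0.44 to 0.25. Hoxa13, of the distal limb and hindgut, was at 4.48 ± 0.27 and 4.77 ± 0.14 (SD, n = 3 each). All 3 genes were within background in both groups. RefSeq's model of Hoxa3 spans Hoxa4, Hoxa5 and Hoxa6, so signal of those probe sets may include Hoxa3 transcripts.

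The promoters of the HoxA genes that RefSeq's table holds for this run are shown to set the lower genes beside Hoxa4. Each holds 250 bases before and 50 after the gene's start in assembly GRCr8, on the minus strand of chromosome 4, and capitals mark matches on either strand to the composite Pbx-Hox motif TGATNNAT, the Meis half-site TGACAG or the Cdx motif TTTATG.
Hoxa2, chr4:82595643-82595942: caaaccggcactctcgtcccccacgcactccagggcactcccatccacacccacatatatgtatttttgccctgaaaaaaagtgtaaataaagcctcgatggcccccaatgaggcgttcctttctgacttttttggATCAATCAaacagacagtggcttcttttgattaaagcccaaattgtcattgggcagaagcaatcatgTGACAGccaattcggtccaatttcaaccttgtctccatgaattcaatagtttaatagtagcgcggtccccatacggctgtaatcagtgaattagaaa
Hoxa4, chr4:82622253-82622552: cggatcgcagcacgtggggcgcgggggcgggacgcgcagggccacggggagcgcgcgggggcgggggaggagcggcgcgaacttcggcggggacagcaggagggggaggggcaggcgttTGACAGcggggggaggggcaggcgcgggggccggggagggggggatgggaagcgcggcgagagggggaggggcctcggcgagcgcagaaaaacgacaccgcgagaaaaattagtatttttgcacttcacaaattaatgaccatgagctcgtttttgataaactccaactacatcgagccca
Hoxa6, chr4:82639414-82639713: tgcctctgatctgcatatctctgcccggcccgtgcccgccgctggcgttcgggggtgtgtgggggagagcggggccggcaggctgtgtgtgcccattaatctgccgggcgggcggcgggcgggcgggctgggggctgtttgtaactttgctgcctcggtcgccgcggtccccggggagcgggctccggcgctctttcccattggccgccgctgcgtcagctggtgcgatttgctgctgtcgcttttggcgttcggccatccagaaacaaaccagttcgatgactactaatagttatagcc
Hoxa7, chr4:82648192-82648491: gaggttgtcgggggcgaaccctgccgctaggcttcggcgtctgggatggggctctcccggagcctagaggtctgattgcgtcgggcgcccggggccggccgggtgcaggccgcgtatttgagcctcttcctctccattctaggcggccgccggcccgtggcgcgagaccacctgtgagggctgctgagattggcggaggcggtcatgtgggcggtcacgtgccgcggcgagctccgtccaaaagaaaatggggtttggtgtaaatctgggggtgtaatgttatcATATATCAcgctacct
Hoxa9, chr4:82656999-82657298: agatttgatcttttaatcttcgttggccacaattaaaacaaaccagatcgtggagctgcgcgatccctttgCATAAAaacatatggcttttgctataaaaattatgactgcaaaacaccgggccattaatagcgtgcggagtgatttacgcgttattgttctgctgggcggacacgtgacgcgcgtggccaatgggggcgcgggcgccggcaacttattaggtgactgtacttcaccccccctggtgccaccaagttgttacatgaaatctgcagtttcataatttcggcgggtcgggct

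Matches were few in these windows. TGATNNAT was found in the promoters of Hoxa2 and Hoxa7, TGACAG in those of Hoxa2 and Hoxa4, and TTTATG in that of Hoxa9, while Hoxa6 held none of the 3. No match overlapped a match to another motif in the sequences shown. Among the 16 promoter sequences of 15 measured Hox genes, TGATNNAT occurred in 3, TGACAG in 3 and TTTATG in 2. Of all 33469 promoters of this length, 9.10% held TGATNNAT, 19.0% TGACAG and 12.7% TTTATG. CpG dinucleotides numbered 34 for Hoxa4, 30 for Hoxa6, 29 for Hoxa7, 21 for Hoxa9 and 9 for Hoxa2, beside a median of 7 over all promoters. Hoxa4, which did not pass, and the lower genes Hoxa6 and Hoxa7 thus had similar CpG counts. A match describes letters only, not a bound site.

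In HoxC, every measured gene from Hoxc4 to Hoxc10 was lower in NSCPs. Hoxc8, a gene of the thoracic trunk, was at 11.29, 11.09 and 11.30 in SKPs and at 8.61, 8.36 and 8.26 in NSCPs. The NSCP arrays lie far below the SKP arrays and still well above background, so this difference was measured on both sides. It was 7.05-fold lower in NSCPs (log2 difference -2.82, SE 0.14, limma adjusted p = 8.67e-07). Hoxc9, which represses forelimb-level motor neuron fates in the thoracic cord, was at 8.99, 8.41 and 8.94 against 7.83, 7.68 and 7.37. It was 2.22-fold lower, with both groups above background.

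Hoxc10, a lumbar-level gene, was at 6.50, 6.94 and 6.81 in SKPs and 5.29, 5.93 and 5.70 in NSCPs, a difference of -1.11 (SE 0.19, limma adjusted p = 0.00163). Hoxc4, a neck-level gene, was at 7.76, 7.35 and 7.65 against 6.45, 6.61 and 6.39, a difference of -1.10 (SE 0.14). Hoxc5 was at 5.95, 5.67 and 5.97 against 4.44, 3.69 and 4.14. In all 3 genes the groups do not overlap, and the NSCP mean of Hoxc5 lies within background. RefSeq's model of Hoxc6 spans Hoxc5 and Hoxc4, so signal of those probe sets may include Hoxc6 transcripts.

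At the posterior end of HoxC the direction was different. Hoxc12 was at 3.70, 3.62 and 3.75 in SKPs and 4.21, 4.40 and 4.30 in NSCPs, higher in NSCPs by 0.62 (SE 0.12, limma adjusted p = 0.00275) with both groups within background. Hoxc13, a gene of hair follicles and nails, was at 5.48 ± 0.07 in SKPs and 5.63 ± 0.19 in NSCPs (SD, n = 3 each). Its difference of 0.15 had a 95% interval from -0.16 to 0.46. The 5 lower HoxC genes thus lie on the Hoxc4 side of the cluster and neither Hoxc12 nor Hoxc13 was lower.

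In HoxB, 4 of 10 genes (40%) were higher in NSCPs, beside 25.2% of all genes, and all differences were small. Hoxb7, a trunk-level gene, was at 5.80, 5.84 and 5.94 in SKPs and 6.99, 6.50 and 6.80 in NSCPs. It was 1.88-fold higher in NSCPs (log2 difference 0.91, SE 0.15, limma adjusted p = 0.00122), with both groups above background and no overlap. Hoxb6 was at 5.65, 5.55 and 5.57 against 5.82, 6.06 and 6.25, a difference of 0.45 (SE 0.14). Hoxb1, a hindbrain gene, was at 5.62, 5.94 and 5.65 against 6.06, 6.11 and 6.28, and Hoxb9 at 5.26, 5.29 and 5.28 against 5.49, 5.75 and 5.70. Their differences were 0.41 and 0.37, beside a median of 0.14 over all genes.

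Each of these 3 smaller calls was lost in 5 of the 6 fits with an array left out. The differences stayed positive, from 0.35 to 0.52 for Hoxb1, 0.35 to 0.56 for Hoxb6 and 0.32 to 0.45 for Hoxb9. With each array left out in turn, Hoxb1 remained called only without SKP replicate 2, and Hoxb6 and Hoxb9 only without NSCP replicate 1. The limma adjusted p then ran from 0.0189 to 0.125 for Hoxb1, from 0.0133 to 0.101 for Hoxb6 and from 0.0243 to 0.110 for Hoxb9. Over all Hox genes 7 were higher, against 3 without SKP replicate 1, 4 without SKP replicate 3 and 4 without NSCP replicate 2. The 10 lower genes were called in each of these fits. Among all 18166 genes the higher calls fell as well, from 4569 to 3633, 3495 and 4250 in the same fits.

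The other HoxB genes did not pass. Hoxb2, a hindbrain gene, was at 6.82 ± 0.05 in SKPs and 6.83 ± 0.04 in NSCPs (SD, n = 3 each), above background in both, with a 95% interval of the difference from -0.24 to 0.26. Hoxb3 was at 6.35 ± 0.21 against 6.02 ± 0.12 and Hoxb4 at 5.97 ± 0.17 against 6.11 ± 0.24 (SD, n = 3 each), above background in both groups. Hoxb8 was at 5.24 ± 0.14 against 5.63 ± 0.44, Hoxb5 at 4.50 ± 0.16 against 4.83 ± 0.20 and Hoxb13 at 4.58 ± 0.15 against 4.51 ± 0.03 (SD, n = 3 each). These 3 lie near or within background, and did not pass, but Hoxb8 was called higher by limma when NSCP replicate 3 was left out (adjusted p = 0.0136) and Hoxb5 with array weights (adjusted p = 0.0151).

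HoxD, whose posterior genes pattern digits and genitalia, gave 2 higher genes of 6, or 33.3% beside 25.2% of all genes. Both lie within background in both groups. Hoxd1 was at 3.48, 3.69 and 3.77 in SKPs and 4.10, 4.19 and 4.35 in NSCPs, a difference of 0.57 (SE 0.13, limma adjusted p = 0.00808). Hoxd13 was at 3.41, 3.64 and 3.79 against 4.04, 4.72 and 4.20, a difference of 0.71 (SE 0.19). Its adjusted p of 0.0171 became 0.0540 without SKP replicate 1. Neither gene gives a level of expression that can be told from that of receptor genes.

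Hoxd3 and Hoxd10 were above background in both groups and did not pass. Hoxd3 was at 5.84 ± 0.14 in SKPs and 6.14 ± 0.12 in NSCPs, and Hoxd10 at 6.04 ± 0.20 and 6.10 ± 0.22 (SD, n = 3 each). Hoxd4 was at 5.70 ± 0.19 against 5.38 ± 0.31 and Hoxd12 at 4.38 ± 0.16 against 4.58 ± 0.13 (SD, n = 3 each). The 95% intervals of the differences reached from 0.00 to 0.59 for Hoxd3 and from -0.29 to 0.43 for Hoxd10. Hoxd3 was called higher by limma after renewed quantile normalization (adjusted p = 0.0335) and after median centring (adjusted p = 0.0443).

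**Figure D2:**
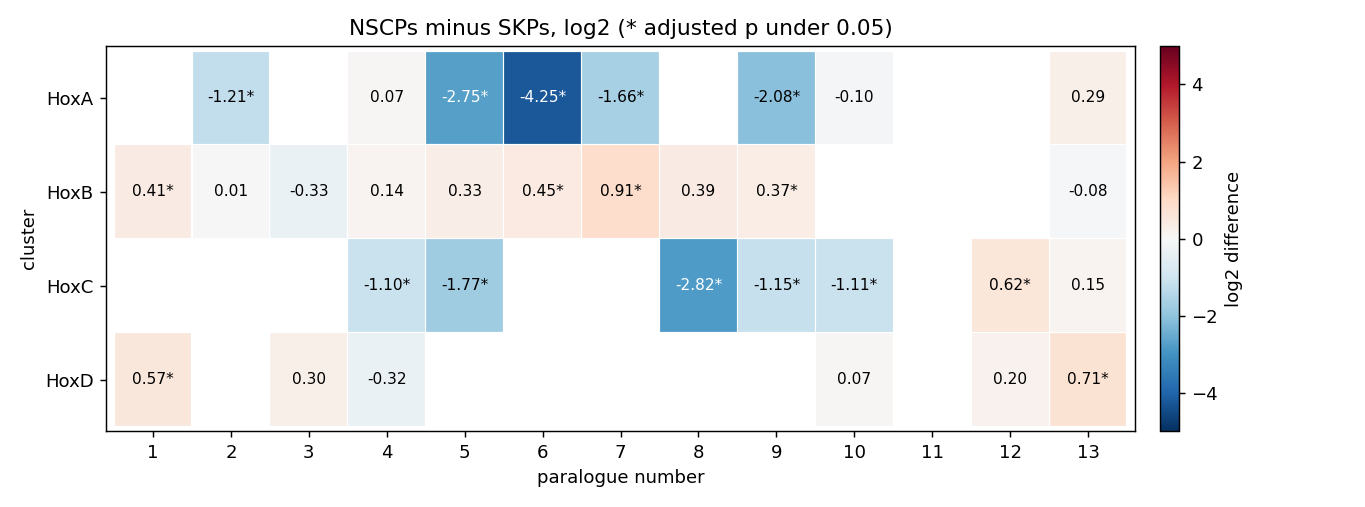
Differences between NSCPs and SKPs on the log2 scale, with clusters as rows and paralogue numbers as columns; blue is lower and red higher in NSCPs, a star marks an adjusted p under 0.05 and blank fields hold no gene analysed here. The starred blue fields lie in HoxA and HoxC between paralogues 2 and 10 and reach -4.25 at Hoxa6, while the largest red value is 0.91 at Hoxb7. Small negative values without a star stand at Hoxb3 (-0.33), Hoxd4 (-0.32), Hoxa10 (-0.10) and Hoxb13 (-0.08).

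Paralogues of 1 group are set side by side here by their differences. In group 6, Hoxa6 differed by -4.25 and Hoxb6 by 0.45, and in group 7, Hoxa7 by -1.66 and Hoxb7 by 0.91. In group 9, Hoxa9 differed by -2.08, Hoxc9 by -1.15 and Hoxb9 by 0.37. In group 5 both Hoxa5 (-2.75) and Hoxc5 (-1.77) were lower and Hoxb5 (0.33) did not pass. In group 8 Hoxc8 (-2.82) was lower and Hoxb8 (0.39) did not pass. The differences between paralogues were not themselves tested.

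Grouped by position over all clusters, paralogues 4 to 8 held 6 lower and 2 higher genes among 13, with a median difference of -0.32. Paralogues 1 to 3 held 1 lower and 2 higher among 6, and paralogues 9 to 13 held 3 lower and 3 higher among 12. Lower were 46.2% of paralogues 4 to 8, 16.7% of 1 to 3 and 25% of 9 to 13, beside 18.6% of all genes. In the same order 15.4%, 33.3% and 25% were higher, beside 25.2% of all genes. In groups 12 and 13, the most posterior ones, limma called 0 of 6 genes lower (0 without adjustment too). Hoxc12 and Hoxd13 were higher there, both within background in both groups. Within HoxA and HoxC alone, paralogues 4 to 8 were lower in 6 of 7 genes, all except Hoxa4. These bins were chosen after the values were seen.

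The arrays of the groups did not overlap for 19 of the 31 Hox genes, a share near the 56.6% of all genes. Every NSCP array lay below every SKP array for 10 of the 31 Hox genes, against 22.1% of all genes. These are the 10 genes called lower on the same arrays. In the upward direction 9 of the 31 had every NSCP array above every SKP array, a share below the 34.4% of all genes. A called difference of at least 2-fold was found for 10 of the 31 Hox genes, the lower ones, against 17.4% of all genes.

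SKP replicate 1 was the highest SKP array for 7 of the 10 lower Hox genes, and SKP replicate 2 was the lowest for 7. The mean over these 10 genes was 7.91, 7.57 and 7.79 in SKP replicates 1, 2 and 3, and 5.85, 5.79 and 5.66 in the NSCP arrays. The summed leukocyte markers had the same order as this mean, with 143.9, 128.7 and 132.8 in the same SKP arrays. Singly, Hoxa5, Hoxa6, Hoxa7, Hoxc4 and Hoxc9 had that order, and the other lower Hox genes did not. The dermal genes Prrx1 (11.69, 10.95 and 11.58) and Twist2 (10.33, 10.12 and 10.17), chosen after their values were seen, had the leukocyte order too. No other dermal mesenchyme marker had it. The summed dermal mesenchyme markers did not, with 116.3, 117.1 and 116.6 in SKP replicates 1, 2 and 3. The part of leukocytes in the lower Hox genes was not tested. Of the 15 leukocyte markers 11 had NSCP means within background, among them the leukocyte phosphatase gene Ptprc and the macrophage genes Lyz2 and Adgre1.

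MicroRNA genes inside the clusters were measured as their hairpins, by whole-transcript probes rather than as mature RNA. Such probes give no level of the mature microRNA. The mature sequences are shown because members in different clusters share a seed (bases 2 to 8, in capitals). The first 4 are 5′ arms or the only arm listed of the genes compared below, and the last pair are the 5′ arms of the Mir10 genes.
rno-miR-196b-5p: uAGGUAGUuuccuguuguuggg
rno-miR-196a-5p: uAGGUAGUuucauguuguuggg
rno-miR-196c-5p: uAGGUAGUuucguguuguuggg
rno-miR-615: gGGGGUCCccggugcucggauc
rno-miR-10a-5p: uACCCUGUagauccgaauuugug
rno-miR-10b-5p: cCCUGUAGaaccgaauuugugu

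Mir196a, Mir196b and Mir196c share the seed AGGUAGU and lie in HoxC, HoxA and HoxB. Counted from 1 at the 5′ end, the mature sequences of Mir196b and Mir196a differ by C12A and those of Mir196b and Mir196c by C12G. Their family is known to repress Hoxb8 and other Hox transcripts. Mir10a and Mir10b, of HoxB and HoxD, also come from 1 family, but their listed 5′ arms start at different bases, so bases 2 to 8 read ACCCUGU and CCUGUAG.

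Mir196b, which lies between Hoxa9 and Hoxa10, was lower in NSCPs like its neighbour Hoxa9. It stood at 5.89, 6.27 and 6.31 in SKPs and at 4.57, 5.02 and 4.64 in NSCPs, a difference of -1.41 (SE 0.17, limma adjusted p = 2.13e-04), with an NSCP mean within background. Mir615, which lies inside Hoxc5, was at 5.29, 5.54 and 5.33 against 4.76, 4.89 and 4.97, lower by a difference of -0.51 with both groups within background.

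Mir196a, between Hoxc9 and Hoxc10, was at 4.25 ± 0.22 against 4.18 ± 0.19, and Mir196c, on the posterior side of Hoxb9, at 6.38 ± 0.22 against 6.74 ± 0.27 (SD, n = 3 each). Neither passed, and both are named here outside the naming rule because they share the seed of Mir196b. Mir10a, next to Hoxb4, was higher by 0.54 (limma adjusted p = 0.0366) at 1.79 ± 0.18 against 2.32 ± 0.30 (SD, n = 3 each), far below background in both groups. The antisense RNA gene Hoxa11-as, chosen after its values were seen, differed by 0.21 (limma adjusted p = 0.281).

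**Figure D3:**
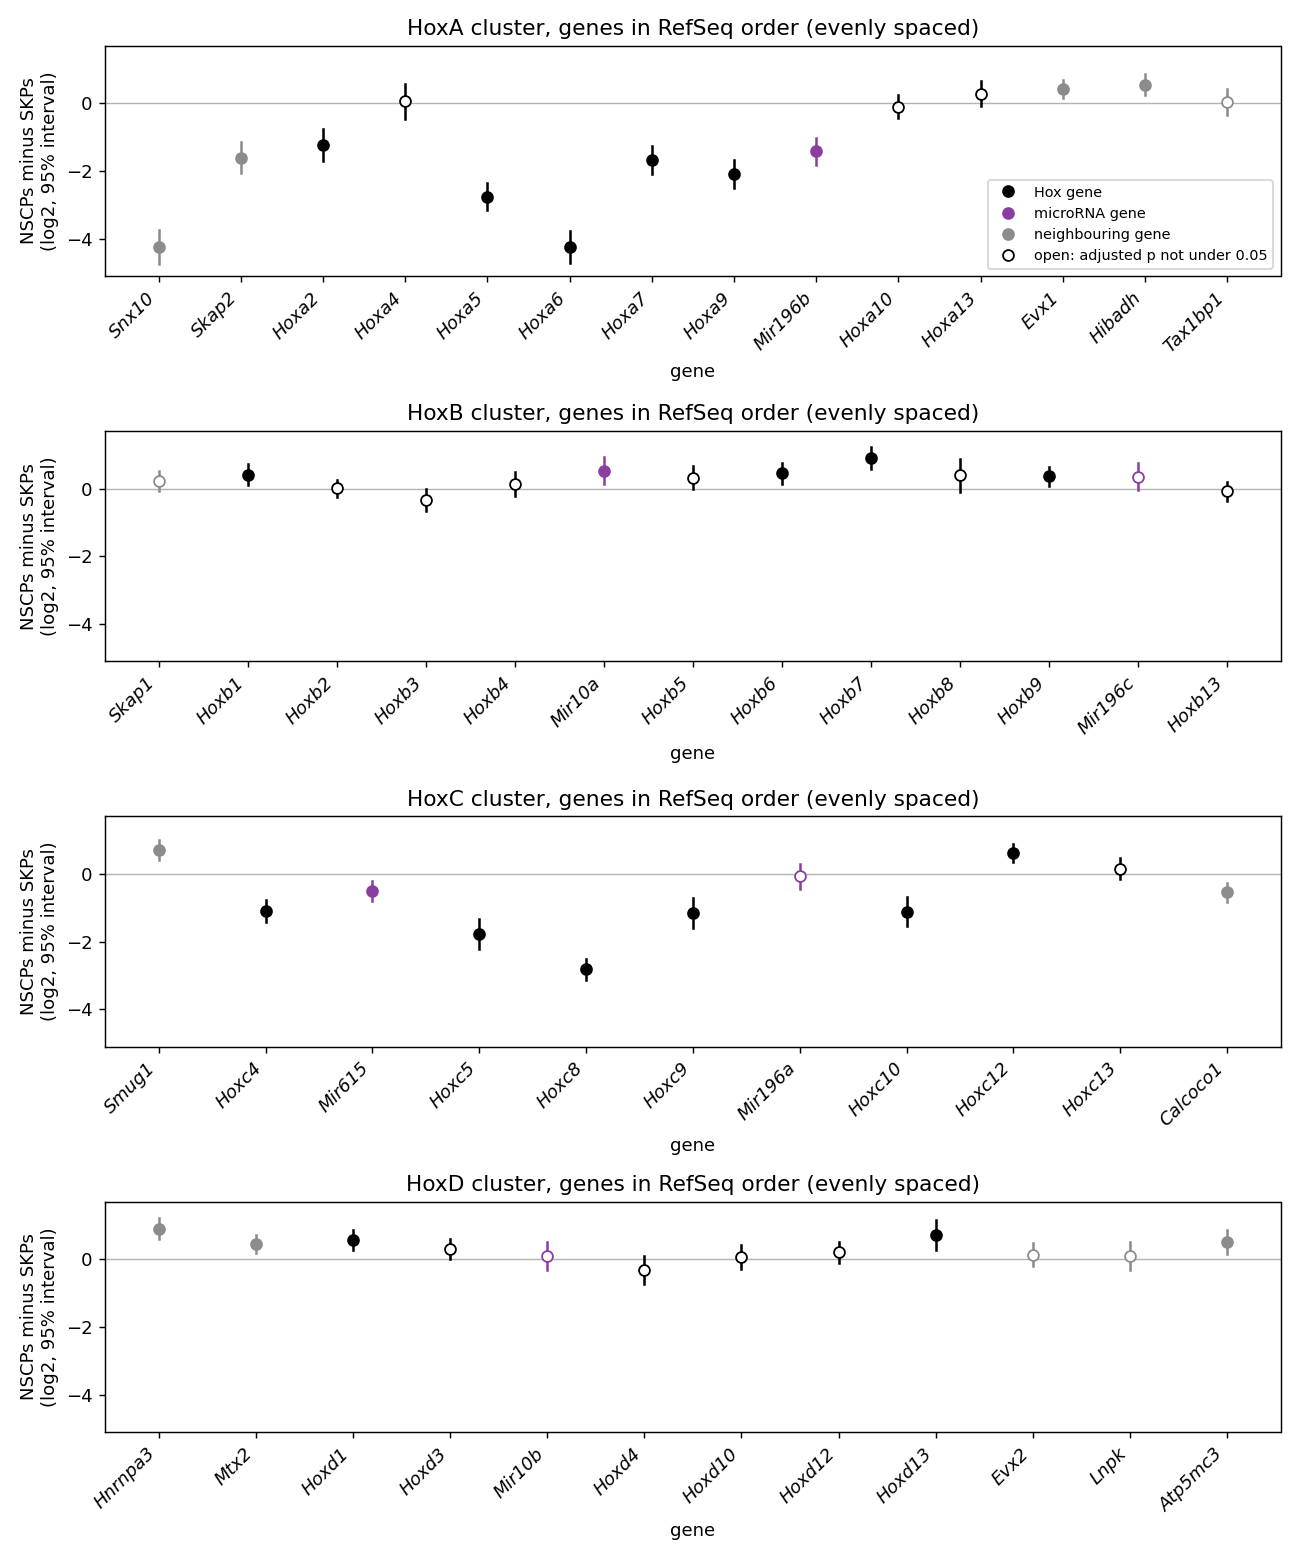
Differences between NSCPs and SKPs on the log2 scale with 95% intervals, for the measured genes of each cluster in their RefSeq order and evenly spaced, with Hox genes in black, microRNA genes in purple, neighbouring genes in grey and open circles for genes that did not pass. In HoxA the low values run from Snx10 (-4.24) to Mir196b (-1.41), broken by Hoxa4, and in HoxC from Hoxc4 to Hoxc10, broken by Mir196a.

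Genes beside the clusters were compared to see where the differences end. Of 13 measured neighbours 3 were lower and 6 higher, or 23.1% and 46.2%, beside 18.6% and 25.2% of all genes. On the Hoxa2 side of HoxA, the sorting nexin gene Snx10 stood at 10.06, 9.12 and 9.75 in SKPs and 5.37, 5.31 and 5.54 in NSCPs, a difference of -4.24 (SE 0.22, limma adjusted p = 1.40e-06) that rests on an NSCP mean within background. Skap2, a signalling adaptor gene between Snx10 and the cluster, was lower by a difference of -1.60 (SE 0.21). The SKP arrays of both genes stand in the same order as the summed leukocyte markers. Among lower genes named elsewhere here, Meis1, Meis3, Pknox1, Ezh1 and Calcoco1 have that order too. Meis2, Pcgf2, Men1, Egr2, Mir196b and Mir615, also lower, do not. The dermal genes Prrx1 and Twist2, chosen after their values were seen, had the leukocyte order too. The other dermal markers and the sum of all dermal markers did not. The part of leukocytes was not tested here either.

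On the Hoxa13 side, Hibadh was higher in NSCPs by 0.55, and the homeobox gene Evx1, named after its values were seen, by 0.42. Beside HoxC, the DNA repair gene Smug1 on the Hoxc4 side was higher by 0.71 and Calcoco1 on the Hoxc13 side lower (-0.54). Beside HoxD, the RNA-binding protein gene Hnrnpa3 was higher by 0.90. Of the listed genes beside HoxB, only Skap1 was measured, and it did not pass (0.24, 95% interval from -0.06 to 0.54); it is named outside the rule.

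Among the TALE cofactors, 6 of 8 measured genes differed, 4 lower and 2 higher in NSCPs, with a median difference of -0.24. The called share was 75% of these few genes, beside 43.7% of all genes. All 3 Meis genes, whose products bind DNA with Hox and Pbx proteins, were lower. Meis1 was at 9.75, 9.09 and 9.51 in SKPs and 6.86, 6.72 and 6.80 in NSCPs, 6.29-fold lower (SE 0.17 on the log2 scale, limma adjusted p = 4.89e-06). Meis2 was 2.94-fold lower, at 9.84 ± 0.08 in SKPs against 8.29 ± 0.23 in NSCPs, and Meis3 2.31-fold lower, at 8.07 ± 0.26 against 6.86 ± 0.26 (SD, n = 3 each). Pknox1, which encodes Prep1, was lower by a difference of -0.59.

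Pbx3 and Pknox2 moved the other way. Pbx3 was at 9.13, 9.62 and 9.16 in SKPs and 10.80, 10.66 and 10.63 in NSCPs, 2.63-fold higher (limma adjusted p = 1.37e-04). Pknox2, which encodes Prep2, was at 6.01, 6.02 and 5.88 against 7.52, 7.56 and 7.47, 2.92-fold higher (limma adjusted p = 9.63e-06). In both genes the groups do not overlap. Pbx2 and Pbx4 did not pass, and all 8 measured genes were above background in both groups.

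**Figure D4:**
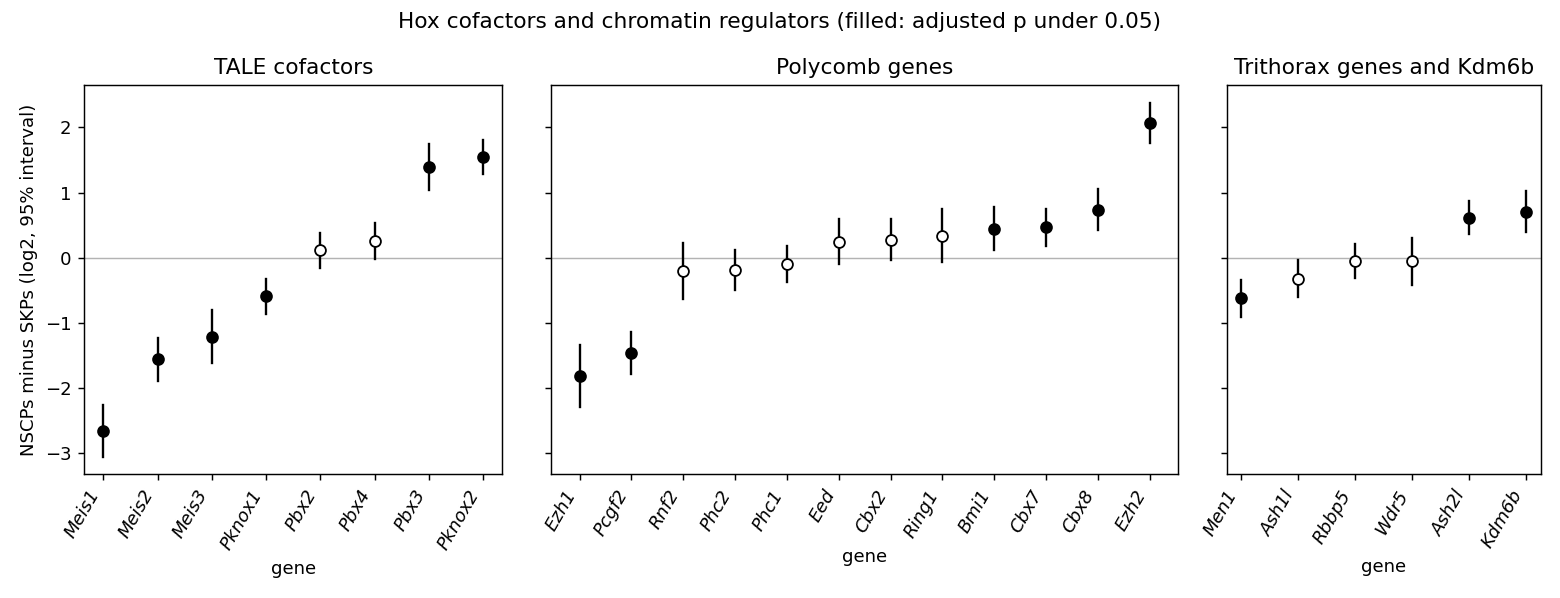
Differences between NSCPs and SKPs on the log2 scale with 95% intervals for TALE cofactors, Polycomb genes and Trithorax genes with Kdm6b, sorted by value within each panel, filled where the adjusted p was under 0.05. The Meis genes lie between -2.65 and -1.21, and Ezh1 (-1.82) and Ezh2 (2.07) stand at opposite ends of the Polycomb panel.

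Of 18 measured chromatin regulators of the Hox clusters 6 were higher and 3 lower, with a median difference of 0.10. These are 33.3% and 16.7%, beside 25.2% and 18.6% of all genes, whose median difference was 0.14. The 2 genes of the Polycomb methyltransferase went in opposite directions. Ezh2, the form of dividing cells, was at 8.57, 8.69 and 8.55 in SKPs and 10.89, 10.49 and 10.65 in NSCPs, 4.20-fold higher (limma adjusted p = 5.12e-06). Ezh1, the form of resting cells, was at 10.11, 9.29 and 9.55 against 7.96, 7.92 and 7.63, 3.52-fold lower (limma adjusted p = 1.64e-04). In neither gene do the groups overlap.

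Of the Polycomb repressive complex genes, Pcgf2 was lower (-1.46) and Bmi1, which encodes a related subunit, was higher by 0.45. The chromobox genes Cbx8 and Cbx7 were higher by 0.74 and 0.47, Cbx8 with an SKP mean within background. Among Trithorax genes, Ash2l was higher by 0.62 and Men1, which encodes the menin subunit of methyltransferase complexes at Hox genes, was lower (-0.62). Kdm6b, which encodes a demethylase of the Polycomb mark, was higher by 0.71.

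Of 6 measured genes that set Hox expression in the embryo 1 was higher and 1 lower, together 33.3% beside 43.7% of all genes. Egr2, which activates hindbrain Hox genes and is also a myelination factor, was 3.75-fold lower in NSCPs, at 11.68 ± 0.13 in SKPs against 9.78 ± 0.19 in NSCPs (SD, n = 3 each). Gdf11, which encodes a signal for posterior Hox genes, was higher by 0.47 (limma adjusted p = 0.0424). Cdx2 was at 5.76 ± 0.11 in SKPs against 5.96 ± 0.09 in NSCPs (SD, n = 3 each) and did not pass, and neither did Cdx1, Cdx4 and Gbx2.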

How the data were processed

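Total RNA of 6 cultures was measured on 1 array each, from 400 ng of RNA per the labels' protocols, whose growth text runs both cultures together, so the media were assigned by their factors. The authors deposited log2 expression values per probe set, made with oligo and RMA (background correction, quantile normalization, summary), per the submitters' processing notes, which name no versions. Quantile normalization hides any shift shared by all genes. Of 36685 probe sets 18511 had 1 gene symbol, 575 several and 17599 none. Where a gene had several, its brightest probe set on average stood for it. Of the 31 Hox symbols 28 matched RefSeq (GRCr8) by Entrez ID, and Hoxa2, Hoxa4 and Hoxa10 kept the platform's symbol. No source used here names the genome build of the probe sets, so coordinates are those of RefSeq sequences only.

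NSCPs were compared with SKPs on all 6 arrays by limma 3.58.1 in R 4.3.3 (lmFit, eBayes, 2-sided, Benjamini-Hochberg over 18166 genes, adjusted p under 0.05), without a block. The fit was tested on simulated data. The number of arrays limits the precision. Figures used matplotlib 3.10.9 under Python 3.11.15. The members and gene lists were chosen with earlier results of these data known. Named were every measured Hox gene and, in each other list, up to 6 called genes with the largest difference, or the 3 with the highest mean where fewer than 3 were called. Alternatives covered arrays left out, the replicate block, scaling, filters, probe sets, adjustment, prior, array weights, threshold and background level.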

Additional observations from a re-analysis of the deposited data

How the results depend on the processing

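The 10 lower Hox genes were called lower under all 16 alternatives of the fit that held them, except that the filters on dim genes removed Hoxa2 and Hoxc5 and left 8. Of the 7 higher genes, Hoxb7, Hoxc12 and Hoxd1 were called under all alternatives that held them. Higher Hox genes numbered 3 to 6 with an array left out, 3 among genes above background, 3 among genes above the median of all probe sets, 4 with adjustment over all probe sets and 3 at an adjusted p under 0.01. They numbered 8 after renewed quantile normalization and after median centring, both with Hoxd3 added, and 8 with array weights, with Hoxb5 added. The 2 filters tested fewer genes and left 11 and 11 of the 17 called Hox genes. With the replicate number as a block, 5 Hox genes were higher and 10 lower, and Hoxb1 (limma adjusted p = 0.0550) and Hoxb9 (0.0555) were not called. Deviations of same-numbered arrays correlated across genes by 0.028 to 0.050, and each array correlated best with its own number. Values this small do not settle whether same-numbered arrays share more than a number. Signs turned for 4 genes that did not pass: with an array left out, differences ran from -0.12 to 0.30 for Hoxa4, -0.018 to 0.031 for Hoxb2, -0.22 to 0.017 for Hoxa10 and -0.043 to 0.18 for Hoxd10, and array weights gave -0.073 for Hoxa4. Median centring moved the median of all genes from 0.14 to 0.21. At the 99th percentile 9 Hox genes were above background in SKPs and 4 in NSCPs. Genes near background limit the precision, and 9 of the 31 were within it in both groups.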
